A study of Mus musculus with 16 samples.

Results

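Erythroid-primed LSK cells were the 400 of 5157 kept single LSK cells (7.76%) that met a rule on the transcripts of 4 genes linked to the early red cell lineage; 255 of them met it with Apoe alone, which macrophages also make. LSK cells lack lineage markers, carry Sca1 and Kit, and contain the stem cells and multipotent progenitors of the blood. Cells were chosen by counts of unique molecular identifiers (UMIs), each standing for 1 captured transcript. E was the sum of the UMIs of Car1, Klf1, Mfsd2b and Apoe, and M the sum of Pf4, Itga2b, Vwf, Gp1bb and Cavin2, which mark megakaryocytes. A kept cell was a member when E was at least 2 and E was at least M, and the remaining 4757 kept cells are called other LSK cells. Since measured values chose the members, these 9 genes are described without a test, apart from tests in which a gene was held out of the rule.

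Lethally irradiated CD45.1/CD45.2 mice of the C57BL/6J strain had been given equal parts of fetal liver cells of both genotypes, CD45.2 cells lacking Regnase-1 and Regnase-3 and CD45.1 control cells, and LSK cells were sorted from their bone marrow 4 weeks later. The labels name 1 group for the 16 libraries and give neither genotype nor mouse for a library or well, so double knockout and control cells were not compared here. Each library was a plate processed by MARS-seq, which counts mRNA 3' ends with UMIs. The 16 libraries held 521435 to 822534 UMIs and 295 to 345 kept cells, at 1146 to 1993 median UMIs per kept cell. Of these, 9 belonged to sequencing batch SB341, 6 to SB343, and LSK library 1 had no entry in the well table. In the 60 wells listed without a cell, 801 UMIs were counted in all and 0 of the genes in E. So few UMIs cannot show whether transcripts of these genes spread between wells.

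Erythroid priming is the low expression of red cell genes in progenitors that have not yet committed to that fate. The factors GATA2, GATA1, its partner FOG1 (Zfpm1), TAL1 and GFI1B act in both erythroid and megakaryocytic progenitors, and KLF1 then drives the red cell side. KLF1 targets include haem synthesis enzymes, iron uptake, membrane proteins and, late, the globins.

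Most members met the rule by Apoe alone. Apoe, a lipid-transport apolipoprotein, was detected in 371 members (92.8%) and gave 1243 of the E UMIs (56.1%). Mfsd2b, which exports sphingosine-1-phosphate from red cells and platelets, was detected in 89 members. Car1, a carbonic anhydrase of erythroid cells, was detected in 74 members with up to 56 UMIs in a cell, and Klf1 in 49. Of the 400 members, 255 (63.8%) held Apoe and none of the other 3 genes, 92 held Car1 or Klf1, 53 held Mfsd2b without Car1 and Klf1, and 8 held all 4. Of all kept-cell UMIs of a gene, members held 93.6% for Car1, 87.7% for Klf1, 71.1% for Apoe and 66.8% for Mfsd2b.

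The GENCODE annotation of the same build places Car1 at chr3:14766216-14808368, minus strand, Klf1 at chr8:84901928-84905291, plus strand, Mfsd2b at chr12:4862440-4874359, minus strand and Apoe at chr7:19696109-19699188, minus strand. Many members lay at the threshold: 146 (36.5%) had an E of exactly 2, 69 had 3, the median was 3 and the highest 60. Most kept cells, 4202, had an E of 0. Just outside the threshold, 521 kept cells had an E of 1, and 34 cells with an E of 2 or more were left out because M was larger. Among members, 116 (29.0%) also held at least 1 UMI of the megakaryocyte genes, and in 21 of them E equalled M.

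Of the genes in the rule or called higher in members, not all are shown. Promoters of 4 are shown: Klf1 from the rule, and Ermap, Epor and Cpox, each called higher in members. They run 5′ to 3′ on the gene's strand, from 250 bases before to 50 after the start in RefSeq on GRCm38.p6 (chr8:84901732-84902031 for Klf1 on the plus strand, chr4:119189946-119190245 for Ermap on the minus strand, chr9:21963527-21963826 for Epor on the minus strand and chr16:58669958-58670257 for Cpox on the plus strand). Capitals mark every match, on either strand, to AGATAA or its variant AGATAG and to TGATAA or its variant TGATAG, which GATA factors can bind, and to CACCC, which KLF factors can bind.
Klf1: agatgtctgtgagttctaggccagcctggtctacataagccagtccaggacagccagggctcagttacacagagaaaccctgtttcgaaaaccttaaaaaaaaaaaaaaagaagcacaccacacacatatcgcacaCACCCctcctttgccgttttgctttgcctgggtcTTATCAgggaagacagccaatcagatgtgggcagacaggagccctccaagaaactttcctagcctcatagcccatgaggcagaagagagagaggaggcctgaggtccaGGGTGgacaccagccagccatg
Ermap: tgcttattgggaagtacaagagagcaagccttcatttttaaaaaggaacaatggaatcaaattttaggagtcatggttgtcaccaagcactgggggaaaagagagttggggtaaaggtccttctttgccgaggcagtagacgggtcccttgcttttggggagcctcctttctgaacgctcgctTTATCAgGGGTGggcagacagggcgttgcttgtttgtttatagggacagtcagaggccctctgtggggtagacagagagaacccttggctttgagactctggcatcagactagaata
Epor: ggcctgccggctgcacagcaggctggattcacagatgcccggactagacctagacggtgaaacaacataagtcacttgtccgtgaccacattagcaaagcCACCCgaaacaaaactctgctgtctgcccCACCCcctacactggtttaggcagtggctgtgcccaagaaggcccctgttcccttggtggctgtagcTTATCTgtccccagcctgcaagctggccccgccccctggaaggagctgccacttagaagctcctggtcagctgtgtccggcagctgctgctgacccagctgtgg
Cpox: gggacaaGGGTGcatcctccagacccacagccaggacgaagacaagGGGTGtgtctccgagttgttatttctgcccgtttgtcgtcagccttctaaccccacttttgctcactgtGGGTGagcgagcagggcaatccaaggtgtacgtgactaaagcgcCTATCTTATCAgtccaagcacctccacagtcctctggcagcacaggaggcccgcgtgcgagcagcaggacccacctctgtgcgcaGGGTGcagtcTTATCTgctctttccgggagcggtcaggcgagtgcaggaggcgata

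The windows of Klf1, Ermap and Epor hold 1 GATA match each and that of Cpox holds 3, of which a pair overlaps. All 4 hold at least 1 CACCC match. Genes not shown differed from these. The windows of Mfsd2b, also in the rule, and of Gata1, Aqp1 and Tfrc, also called higher, hold 0 GATA matches. That of Gfi1b, called higher, holds 1. Windows of Apoe, in the rule, and Blvrb, called higher, hold 0 or 1 depending on the start. Of the genes tested, 2.7% were called higher in members and 4.45% lower, as described below. Among the 185 promoters in the table for genes called higher in members, 28.6% held a GATA match, against 21.4% of 243 for genes called lower, 18.1% of 6180 for all genes tested and 30.3% of all 27025 promoters. Both motifs were found in 20.5% for genes called higher, 9.47% for genes called lower, 9.84% for all genes tested and 14.9% of all promoters. CACCC matches, with or without a GATA match, were in 67.6% for genes called higher, 63.4% for genes called lower, 60.5% for all genes tested and 56.8% of all promoters. These shares describe letters in the windows and were not tested.

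Every library held members, between 10 and 48 cells with a median of 24. Their share of kept cells was 3.17% in the lowest library, 7.13% at the median and 14.1% in the highest. The 9 SB341 libraries spanned 3.17 to 8.66% (median 5.79%), below the 8.97 to 14.1% (median 10.2%) of the 6 SB343 libraries, and library 1 lay at 6.87%. The batch and any difference between mice or genotypes cannot be told apart, and libraries were not tested against each other. Members with Apoe alone made up 1.6 to 6.57% of kept cells in SB341 and 3.53 to 9.06% in SB343, and members with Car1, Klf1 or Mfsd2b made up 0.317 to 4.44% in SB341 and 2.81 to 5.87% in SB343. The share also grew with the depth of a cell. It was 3.87% among cells of 500 to under 1000 UMIs, 6.47% at 1000 to under 2000, 11.1% at 2000 to under 4000 and 14% at 4000 or more. Members had a median of 2137 UMIs and other LSK cells 1516. With every cell thinned to 500 UMIs before the rule was applied, 114 cells qualified (2.21%), with 0.317 to 2.66% per library in SB341 and 2.61 to 4.11% in SB343.

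**Figure D1:**
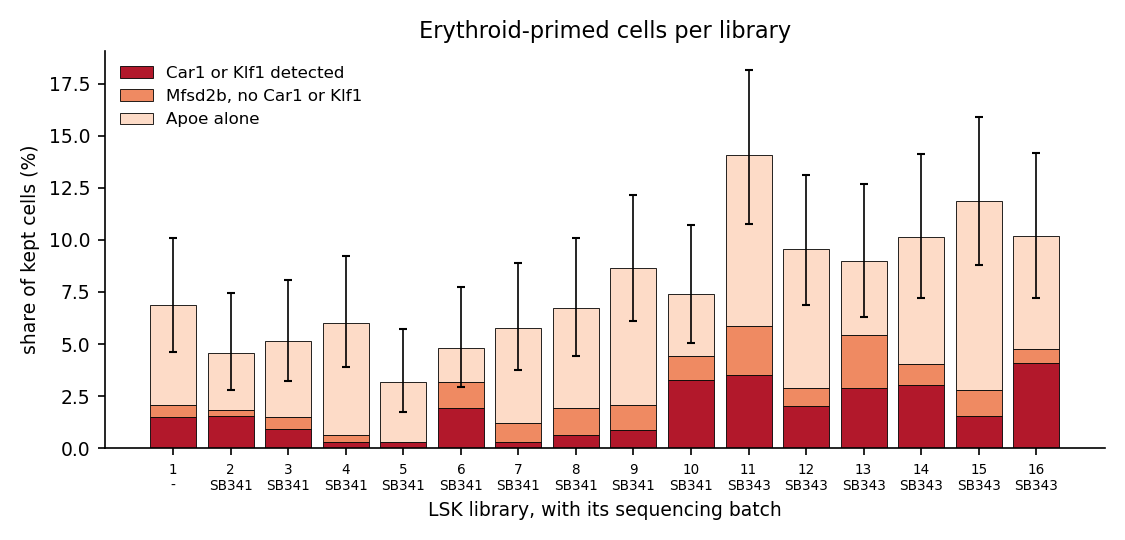
Share of kept cells that were erythroid-primed, in percent, for each of the 16 LSK libraries with its sequencing batch; stacked bars divide members by the rule genes detected and error bars are Wilson 95% intervals of the total. Shares run from 3.17 to 14.1%, all 6 SB343 libraries lie above all 9 SB341 libraries, and Apoe alone makes up the largest layer in most bars.

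The name was checked on genes outside the rule, first on 6 later erythroid genes taken, after values were seen, from a list of 11: Epor (the erythropoietin receptor), Ermap and Rhag (red cell membrane proteins), Sphk1 (a sphingosine kinase), Aqp1 (a water channel) and Hba-a1 (an alpha globin). At least 1 UMI of these was found in 68 of 400 (17%, Wilson 95% interval 13.6 to 21.0%) erythroid-primed cells and in 52 of 4757 (1.09%, Wilson 95% interval 0.835 to 1.43%) other LSK cells. Members with Car1 or Klf1 carried most of this, at 46 of 92 (50%, Wilson 95% interval 40 to 60%). Members with Mfsd2b but neither of those reached 8 of 53 (15.1%, Wilson 95% interval 7.85 to 27.1%), and members with Apoe alone 14 of 255 (5.49%, Wilson 95% interval 3.30 to 9%). The share in megakaryocyte-primed cells (M of 2 or more and M larger than E), which lie among the other LSK cells, was 10 of 106 (9.43%, Wilson 95% interval 5.21 to 16.5%), and in the remaining cells 42 of 4651 (0.903%, Wilson 95% interval 0.669 to 1.22%). Median UMIs per cell were 2489 in members with Car1 or Klf1, 2463 in those with Mfsd2b but neither, 2056 in those with Apoe alone, 2258 in megakaryocyte-primed cells and 1496 in the remaining cells. With each cell thinned to 500 UMIs the shares were 18.5%, 3.77%, 1.57%, 1.89% and 0.301% in these sets, listed in that order. The interval for members with Apoe alone, the majority, overlapped that for megakaryocyte-primed cells and lay above that for the remaining cells. Thinned, the share in members with Apoe alone rested on 4 cells (Wilson 95% interval 0.612 to 3.96%). All these intervals pool the cells of the 16 libraries. They cover counting error and not the spread between libraries, and the sets were not tested against each other. The 6 genes leave out Gata1 and Tfr2, which were called higher in members, and Hbb-bt, Cnrip1 and Alas2, which were not, so this pattern depends in part on which genes were taken. At least 1 UMI of any of the 11 was found in 64.1% of members with Car1 or Klf1 (Wilson 95% interval 53.9 to 73.2%), 49.1% of members with Mfsd2b but neither (36.1 to 62.1%) and 34.5% of members with Apoe alone (28.9 to 40.5%), against 34.0% of megakaryocyte-primed cells (25.6 to 43.4%) and 21.2% of the remaining cells (20 to 22.4%). By either count members with Car1 or Klf1 stood above those with Apoe alone and above megakaryocyte-primed cells. The intervals of members with Apoe alone and of members with Mfsd2b but neither overlapped that of megakaryocyte-primed cells by either count. Both sets lay above the remaining cells by either count. The count over 11 genes includes Hbb-bt, which other LSK cells also held, and it was not repeated with thinned cells. For members without Car1 and Klf1, erythroid-primed is used here as the name of the rule. These intervals did not separate them from megakaryocyte-primed cells, and no test was run.

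**Figure D2:**
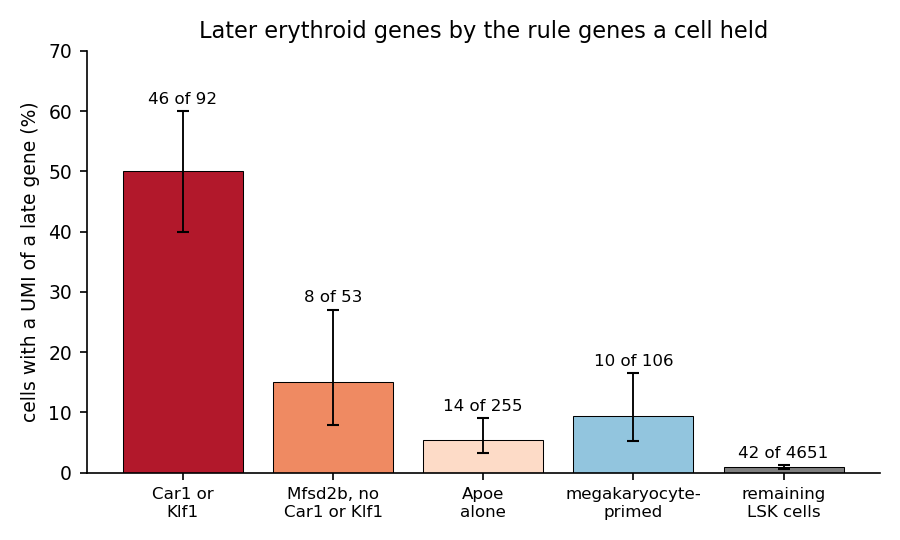
Percent of cells with at least 1 UMI of the 6 later erythroid genes, by the rule genes a cell held, with Wilson 95% intervals and cell counts above the bars. The share is 50% in members with Car1 or Klf1, 15.1% in members with Mfsd2b but neither of those, 5.49% in members with Apoe alone, 9.43% in megakaryocyte-primed cells and 0.903% in the remaining LSK cells.

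Single genes showed where the signal lay. Ermap had 78 UMIs in members with Car1 or Klf1, 0 in members with Mfsd2b but neither and 1 in members with Apoe alone, against 7 in all other LSK cells. Hba-a1 had 81, 0 and 1 UMIs in the same 3 sets and 21 in other LSK cells. Epor was spread more evenly, with 23, 5 and 7 UMIs in the 3 sets of members and 16 in other LSK cells. Alas2, the haem synthesis enzyme of maturing red cells, had 0 UMIs in every kept cell, which allows up to 2.73 CPM, UMIs scaled to the total of the class, in members. Cnrip1, also on that list, was not higher, with 13 UMIs in members (11.8 CPM) and 151 in other LSK cells (16.2 CPM). Members with an E of 10 or more (48 cells, 45 of them with Car1, Klf1 or Mfsd2b) held a later erythroid gene in 72.9% of cells, those with an E of 2 in 4.11%, and cells outside the class with an E of 1 in 2.88%. These sets differed in depth, with median UMIs of 4574, 1829.5 and 1762 in that order, and thinned to 500 UMIs the shares were 25%, 2.05% and 0.768%.

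Because macrophages make Apoe, their defining genes were measured in the same cells. The part of such cells in the result was not tested. In members, C1qa had 1, C1qb had 3, C1qc 5, Cd5l 2, Vcam1 5 and Mrc1 1 UMIs, and Adgre1 and Marco had 0. Other LSK cells held 8, 45, 26, 6, 10 and 9 UMIs of the first 6 genes, 4 of Adgre1 and 0 of Marco. Summed over the 15 genes of the macrophage list, the lowest, median and highest library had 21.6, 40 and 174 CPM in members, against 25, 49.5 and 170.3 CPM in other LSK cells, ranges that overlapped. Over all libraries together the sum was 78.9 CPM in members with Apoe alone (48 of the 64 UMIs in members) and 40.6 CPM in members with Car1 or Klf1, against 61.3 CPM in megakaryocyte-primed and 61.1 CPM in the remaining cells, with no test. All 5 C1qc and all 5 Vcam1 UMIs of members lay in those with Apoe alone. Of the list's genes, 2 could be tested, and Slc40a1, the iron exporter of macrophages and erythroid cells, was called higher (log2 fold change 2.21 ± 0.67, adjusted p = 0.0174 by edgeR's quasi-likelihood test), with 11 of its 13 UMIs in members with Car1 or Klf1. Those 11 were most of the 14 UMIs of the list in members with Car1 or Klf1. The 40.6 CPM of that set thus rested mostly on Slc40a1. Slc40a1 was too low to be tested without library 10, 11 or 16, within either batch, with an M of 0 or with comparison cells matched in UMIs. Of 8 stroma and endothelium genes, 1 could be tested and was not called.

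Each rule gene was higher in cells chosen with the other 3 than in the rest, though the call for Apoe was lost at matched depth. For these tests 1 gene was left out of E, cells with at least 2 UMIs of the other 3 were chosen, and the library's level of the held-out gene was compared by an exact permutation test of sign flips over libraries (two-sided, adjusted over 6 values). Car1, held out, had 0, 496 and 1289 CPM in the cells chosen, against 0, 11.6 and 53.6 CPM in the rest in the lowest, median and highest of 16 libraries, and was higher in 15 of 16 (adjusted exact permutation p = 0.000183). Klf1 had 0, 49.0 and 237 CPM in the cells chosen, against 0, 2.10 and 6.41 CPM in the rest, with 13 libraries higher and 1 lower (adjusted exact permutation p = 0.000366). Mfsd2b had 22.7, 91.8 and 217 CPM in the cells chosen, against 0, 11.1 and 26.6 CPM in the rest, and was higher in 16 of 16 (adjusted exact permutation p = 9.16e-05). Apoe could be held out in 10 libraries, where 88 cells were chosen. Its level was 201, 681 and 1340.4 CPM in the cells chosen, against 71.5, 175 and 271 CPM in the rest, higher in 9 of 10 (adjusted exact permutation p = 0.00586). Within SB341 alone Apoe could be held out in 3 libraries, where the smallest two-sided p is 0.25, and within SB343 in 6 (exact permutation p = 0.0938). Its mean difference of 437 CPM was 298 CPM with comparison cells matched in UMIs (exact permutation p = 0.111) and 307 CPM with an E of 3 or more (exact permutation p = 0.0625).

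Members had a lower mitochondrial share and more genes per cell at equal depth than other LSK cells. The median mitochondrial share per library was 8.07, 9.76 and 12.3% in members, against 9.48, 10.5 and 12.4% in other LSK cells, lower in 15 of 16 libraries (mean difference -0.842 percentage points, adjusted exact permutation p = 0.000879). With comparison cells matched in total UMIs the difference was -0.286 points (exact permutation p = 0.211). After thinning to 500 UMIs, members expressed 346, 365 and 373 genes per cell, against 342, 352 and 362 in other LSK cells, higher in 16 of 16 libraries (adjusted exact permutation p = 9.16e-05). The mean difference of 9.81 genes was 5.25 genes with matched comparison cells (exact permutation p = 0.0115).

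Outside the 9 rule genes, members differed from other LSK cells of the same library by an erythroid and megakaryocytic programme that was higher and by lymphoid and myeloid genes that were lower. UMIs were summed per library and class and tested with edgeR's quasi-likelihood F test, with the library as a block and Benjamini-Hochberg adjustment over 8735 genes. At an adjusted p under 0.05, 236 genes (2.7%) were higher and 389 (4.45%) were lower, together 7.16% of those tested, with 47 and 121 within SB341 and 127 and 193 within SB343. Because each cell's class came from its own transcripts, genes that vary with E differ between the classes by construction, so p-values are smaller than they should be, by how much is unknown, and they measure only the spread between libraries, which may share mice. Levels below are CPM of the summed UMIs of a class in a library, given as the lowest, the median and the highest of 16 libraries.

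Among the erythroid transcription factors, Gata1, Gata2, Zfpm1, Tal1 and Gfi1b were higher in members, Lmo2 was lower, and most of the list was not called. Of 20 listed genes, 18 could be tested; 5 were higher, 1 was lower, and the median log2 fold change was 0.09, against -0.00 over all genes tested. Gata1, the master regulator of red cells and megakaryocytes (chrX:7959260-7978071, minus strand), had 43.1, 109 and 171 CPM in erythroid-primed cells, against 1.51, 7.21 and 18.2 CPM in other LSK cells. The libraries' values did not overlap. Gata1 was higher in 16 of 16 libraries (log2 fold change 3.56 ± 0.29 (SE), adjusted p = 3.09e-31). Gata2, the factor that precedes it in progenitors, had 124, 227 and 396 CPM in erythroid-primed cells, against 46.8, 62.0 and 93.4 CPM in other LSK cells, again without overlap. Gata2 was higher in 16 of 16 libraries (log2 fold change 1.67 ± 0.15 (SE), adjusted p = 1.73e-24). Zfpm1, which encodes the GATA1 partner FOG1, had 88.1, 243 and 409 CPM in erythroid-primed cells, against 51.4, 72.0 and 146 CPM in other LSK cells, with overlap between the classes of different libraries but a higher value in each library's members. Zfpm1 was higher in 16 of 16 libraries (log2 fold change 1.56 ± 0.15 (SE), adjusted p = 1.22e-23). Gfi1b, a repressor needed for both lineages, rose in all 16 libraries (1.72 ± 0.26 (SE), adjusted p = 8.42e-09), and Tal1 in 14 (0.76 ± 0.20, adjusted p = 0.00316). Lmo2, a bridging protein of the same complex that stem cells also use, was lower (-0.31 ± 0.08, adjusted p = 0.00406). The partners Ldb1 and Cbfa2t3 and the erythroid factors Nfe2, Myb, Bcl11a and Zbtb7a were not called, with log2 fold changes of 0.24, 0.24, 0.10, -0.19, 0.06 and 0.01. Within batches, 4 of 18 were higher in SB341 and 6 of 18 in SB343. Over all libraries together the list summed to 2768 CPM in members, 3102 CPM in megakaryocyte-primed cells and 2201 CPM in the remaining cells. These sums were not tested, and a higher level of this list was not particular to members.

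Haem synthesis and iron uptake formed the second group that was higher: 12 of 23 tested genes rose, 1 fell, and the median log2 fold change was 0.73. Among the enzymes of the pathway, those called included Alad (0.76 ± 0.20), Uros (1.30 ± 0.41), Urod (0.96 ± 0.22) and Cpox (1.95 ± 0.29; log2 fold change ± SE throughout). Cpox, coproporphyrinogen oxidase, had 0, 55.5 and 230.1 CPM in erythroid-primed cells, against 4.76, 15.1 and 36.1 CPM in other LSK cells, with overlapping ranges. Cpox was higher in 13 of 16 libraries (log2 fold change 1.95 ± 0.29 (SE), adjusted p = 2.15e-09). Blvrb, biliverdin reductase B, which is abundant in red cells, had 0, 77.7 and 254 CPM in erythroid-primed cells, against 1.67, 14.9 and 26.4 CPM in other LSK cells. Blvrb was higher in 13 of 16 libraries (log2 fold change 2.53 ± 0.27 (SE), adjusted p = 1.7e-18). Tfrc, the transferrin receptor that brings iron into the cell, had 0, 107 and 424 CPM in erythroid-primed cells, against 22.1, 45.6 and 97.5 CPM in other LSK cells; members of libraries 2 and 3 held 0 UMIs of it and those of library 10 the most. Tfrc was higher in 12 of 16 libraries (log2 fold change 1.36 ± 0.19 (SE), adjusted p = 1.26e-10). Tfr2 (1.05 ± 0.28), the iron transporter Slc11a2 (1.70 ± 0.42), the haem transporter Slc48a1 (0.59 ± 0.19), the mitochondrial porphyrin carrier Tmem14c (0.64 ± 0.13) and the iron-sulphur cluster protein Glrx5 (0.72 ± 0.16) also rose. Fth1, the ferritin heavy chain, fell (-0.21 ± 0.06, adjusted p = 0.0085) but stood at 0.0012 with comparison cells matched in UMIs, and Ftl1, the light chain, was not called (-0.12 ± 0.07). Fech, which inserts the iron, was not called either (0.73 ± 0.37, adjusted p = 0.285). Within batches, 3 of 18 tested genes were higher in SB341 and 11 of 21 in SB343, and the difference was not tested. Calls were lost for Alad without library 11 (adjusted p = 0.0526), Slc48a1 without library 3, 11, 13 or 16 (adjusted p = 0.0539 to 0.176), Uros without library 1, 3, 6, 10 or 11 (adjusted p = 0.0597 to 0.105) and Fth1 without library 5 (adjusted p = 0.0713).

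Red cell surface, cytoskeleton and signalling genes showed fold changes that were large but often rested on few UMIs. Of 31 listed genes 22 could be tested, 12 were higher, 0 lower, and the median log2 fold change was 1.28. Car2, a carbonic anhydrase already on in early progenitors, was well covered, at 603, 1165 and 1902 CPM in erythroid-primed cells, against 375, 475 and 568 CPM in other LSK cells, with no overlap. Car2 was higher in 16 of 16 libraries (log2 fold change 1.26 ± 0.07 (SE), adjusted p = 1.03e-77). Ermap had 0, 40.9 and 194 CPM in erythroid-primed cells, against 0, 0 and 5.48 CPM in other LSK cells and 79 against 7 UMIs in all. Ermap was higher in 11 of 16 libraries (log2 fold change 5.55 ± 0.52 (SE), adjusted p = 1.75e-23). Aqp1 had 0, 49.9 and 139.5 CPM in erythroid-primed cells, against 0, 1.47 and 6.08 CPM in other LSK cells. Aqp1 was higher in 12 of 16 libraries (log2 fold change 4.50 ± 0.48 (SE), adjusted p = 1.54e-18). Epor had 0, 19.9 and 108 CPM in erythroid-primed cells, against 0, 1.75 and 6.44 CPM in other LSK cells, and in 6 of 16 libraries members were at or below the other cells. Epor was higher in 10 of 16 libraries (log2 fold change 3.78 ± 0.54 (SE), adjusted p = 4.43e-10). Rhd and Rhag, the Rh blood group proteins, rose by 4.25 ± 0.60 and 4.12 ± 0.70 on the log2 scale, and Icam4, a red cell adhesion molecule, by 2.14 ± 0.41. Tspan33 (3.04 ± 0.64) and the urea transporter Slc14a1 (1.30 ± 0.25) were called too. Sphk1 had 25 UMIs in erythroid-primed cells and 1 in other LSK cells (213-fold, with a 95% counting interval of 34.8 to 8733), and Cldn13 21 UMIs in erythroid-primed cells and 1 in other LSK cells (179-fold, with a 95% counting interval of 28.7 to 7389). edgeR called both genes, while DESeq2 called neither of them nor Rhag (adjusted p = 0.486, 0.469 and 0.151). Within batches, 5 of 15 were higher in SB341 and 9 of 16 in SB343. Pooled over libraries and outside the rule genes, this list summed to 2365 CPM in members, 2118 CPM in megakaryocyte-primed cells and 1019 CPM in the remaining cells. Megakaryocyte-primed cells thus shared most of this level. For the haem and iron list the sums were 3494, 2448 and 2731 CPM in the same order. None of these sums was tested.

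Globins were uneven between members. Hba-a1 was at 0 in the median library of both classes, with up to 719.9 CPM in members and 25.7 CPM in other LSK cells; edgeR called it and Hba-a2 higher (adjusted p = 2.28e-13 and 0.00638), and DESeq2 did not (adjusted p = 0.174 and 0.738). The alpha globin genes are near-identical copies, so reads may be split between them. Hbb-bt, an adult beta globin, was lower in members, at 0, 75.4 and 514 CPM in erythroid-primed cells, against 102, 149 and 241 CPM in other LSK cells. Hbb-bt was lower in 14 of 16 libraries (log2 fold change -0.69 ± 0.16 (SE), adjusted p = 0.00075). Its level in other LSK cells, which should not make it, sat near 149 CPM in the median library. The source of those UMIs was not tested.

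**Figure D3:**
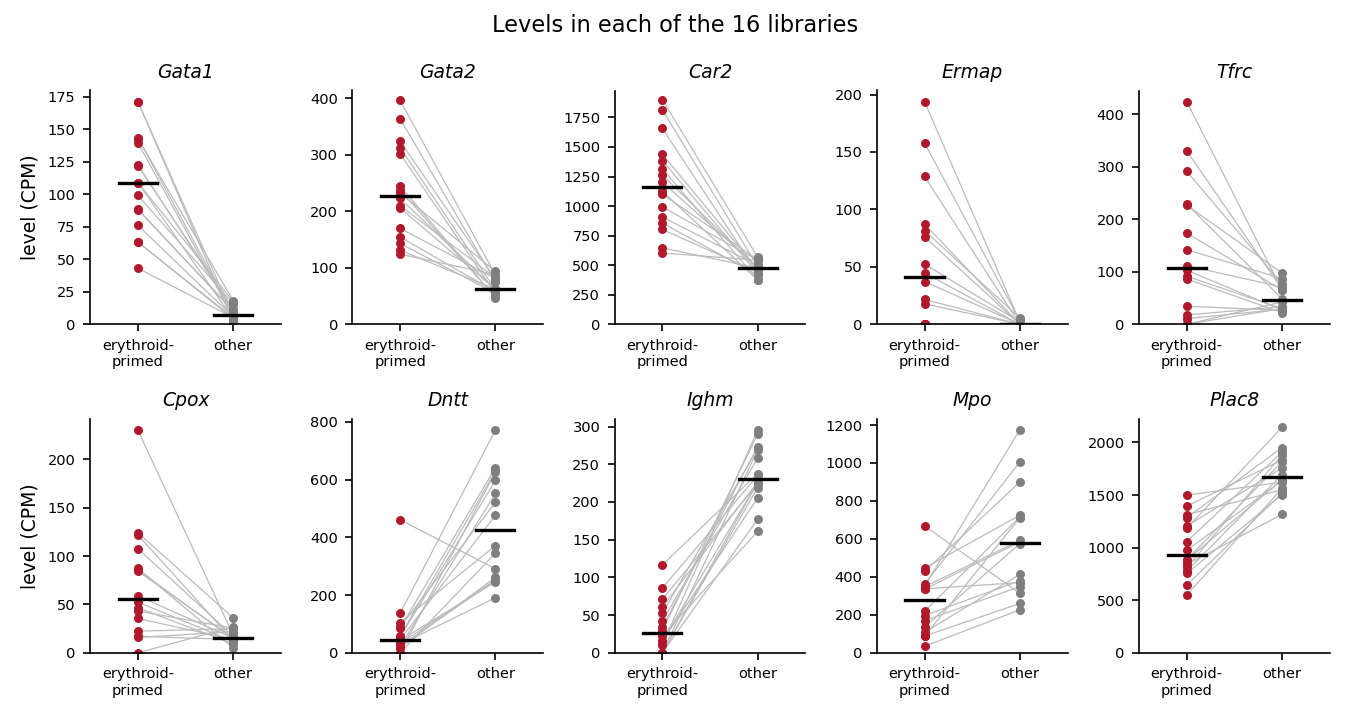
Levels of 10 genes in CPM (linear axes) in the erythroid-primed cells (left) and the other LSK cells (right) of each of the 16 libraries, joined by lines, with black bars at the medians. Gata1, Gata2 and Car2 show no overlap between the classes, Ermap, Tfrc and Cpox rise in most but not all libraries, and Dntt, Ighm, Mpo and Plac8 lie lower in members, with Dntt of library 10 (460.3 CPM in members and 291 CPM in other LSK cells) and Mpo of library 7 (668 CPM in members and 313 CPM in other LSK cells) as exceptions.

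Megakaryocyte and platelet genes outside the rule were higher too: 8 of 19 tested genes rose and none fell, with a median log2 fold change of 0.62. Among them were the platelet glycoproteins Gp1ba (2.66 ± 0.66), Gp5 (2.52 ± 0.52) and Gp9 (1.57 ± 0.35), the thrombin receptors F2r (1.58 ± 0.21) and F2rl2 (2.52 ± 0.58), Timp3 (1.84 ± 0.62) and Rap1b (0.35 ± 0.11). Gp9, a part of the von Willebrand factor receptor, had 0, 35.7 and 137 CPM in erythroid-primed cells, against 3.40, 13.6 and 31.6 CPM in other LSK cells. Gp9 was higher in 13 of 16 libraries (log2 fold change 1.57 ± 0.35 (SE), adjusted p = 0.000267). These genes depended on which rule genes and M UMIs were admitted. With an M of 0 required of members, 2 of 19 were higher. With Apoe left out of E, 0 of 15 were higher and 2 lower, and Gp9 stood at -0.25 (adjusted p = 0.925 by edgeR). In both variants the cells that left the members joined the comparison cells, giving 284 against 4873 and 88 against 5069 cells. With an M of 0 these were the cells with M UMIs, a choice that favours lower values of megakaryocyte genes in members. Rap1b stood at -0.37 with Apoe left out of E and at -0.08 with an M of 0. Within batches, 2 of 14 were higher in SB341 and 4 of 18 in SB343. With single libraries left out, calls were lost for Rap1b without library 2, 6, 11, 12 or 15 (adjusted p = 0.0551 to 0.067) and Timp3 without library 4, 8, 9, 11, 13, 14, 15 or 16 (adjusted p = 0.0532 to 0.247).

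Of mast cell, basophil and eosinophil genes, 2 of 6 tested were higher. Cpa3, a mast cell protease also found in megakaryocyte and erythroid progenitors, had 24.2, 116 and 274 CPM in erythroid-primed cells, against 20.1, 28.1 and 58.5 CPM in other LSK cells. Cpa3 was higher in 14 of 16 libraries (log2 fold change 1.69 ± 0.23 (SE), adjusted p = 5.69e-11). Il1rl1, the interleukin 33 receptor, rose by 3.44 ± 0.66 on the log2 scale. The basophil protease gene Mcpt8 had 0 UMIs in members, which allows up to 2.73 CPM, and 75 in other LSK cells, or 8.03 CPM. Cpa3 stood at -0.78 on the log2 scale with Apoe left out of E and at -0.07 when 2 different rule genes were required. Stem cell genes were divided, with 3 of 16 higher and 4 lower and a median of 0.24. Slamf1, the stem cell surface marker CD150 (1.85 ± 0.55), Pdzk1ip1 (0.92 ± 0.27) and the homeobox factor Meis1 (0.51 ± 0.17) were higher. Hlf, a stem cell transcription factor (-0.66 ± 0.16), Ifitm1 (-0.93 ± 0.10), Ifitm3 (-0.34 ± 0.09) and Ly6a were lower. Ly6a, which encodes the Sca-1 protein used to sort these cells, had 21.6, 105 and 264 CPM in erythroid-primed cells, against 147, 242 and 311 CPM in other LSK cells, and was lower in 15 of 16 libraries (log2 fold change -1.13 ± 0.15, adjusted p = 4.02e-12). Kit, the other sorted marker, was not called (0.18 ± 0.13, adjusted p = 0.562). With Apoe left out of E, Meis1 stood at -0.98 and Pdzk1ip1 at -0.70, and with 2 rule genes required Meis1 stood at -0.58. Calls that a single library removed were Meis1 without library 1, 2, 3, 5, 9, 12, 14, 15 or 16 (adjusted p = 0.0526 to 0.0979) and Slamf1 without library 3 or 15 (adjusted p = 0.0545 to 0.0549).

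Lymphoid priming genes were lower in members: 10 of 13 tested fell, none rose, and the median log2 fold change was -1.50. This was not particular to members. Over all libraries together the list summed to 724 CPM in members, 592 CPM in megakaryocyte-primed cells and 2124.5 CPM in the remaining cells, with no test. Dntt, the terminal transferase of early lymphoid cells, had 0, 44.3 and 460.3 CPM in erythroid-primed cells, against 191, 424 and 771 CPM in other LSK cells. Dntt was lower in 15 of 16 libraries (log2 fold change -2.50 ± 0.14 (SE), adjusted p = 2.54e-66). Its exception was library 10, where members held 38 of the 84 Dntt UMIs found in members, at 460.3 CPM against 291 CPM in other LSK cells. Ighm, the immunoglobulin mu chain, had 0, 25.9 and 116 CPM in erythroid-primed cells, against 161, 231 and 295 CPM in other LSK cells, with no overlap. Ighm was lower in 16 of 16 libraries (log2 fold change -2.84 ± 0.20 (SE), adjusted p = 1.04e-43). Flt3, the cytokine receptor of lymphoid-primed progenitors, had 0, 34.3 and 71.5 CPM in erythroid-primed cells, against 79.4, 120.4 and 219 CPM in other LSK cells, also without overlap. Flt3 was lower in 16 of 16 libraries (log2 fold change -2.23 ± 0.24 (SE), adjusted p = 2.28e-18). Satb1 (-2.14 ± 0.24), Cd53 (-1.89 ± 0.19), Il12a (-2.42 ± 0.38), Notch1 (-1.50 ± 0.37), Lsp1 (-1.34 ± 0.17) and Tcf4 (-0.68 ± 0.20) were lower as well. Within batches, 8 of 13 were lower in SB341 and 7 of 13 in SB343. The call was lost for Tcf4 without library 1, 7 or 11 (adjusted p = 0.051 to 0.0668).

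Granulocyte and monocyte genes were lower in the same way, with 16 of 20 tested lower, none higher and a median of -1.37. Their pooled sum was 2447 CPM in members, 1556 CPM in megakaryocyte-primed cells and 4447 CPM in the remaining cells, again with no test. Mpo, myeloperoxidase, had 34.3, 276 and 668 CPM in erythroid-primed cells, against 226, 579 and 1175 CPM in other LSK cells, with overlap between libraries. Mpo was lower in 15 of 16 libraries (log2 fold change -1.16 ± 0.10 (SE), adjusted p = 5.02e-31). Plac8, a gene broadly on in myeloid and lymphoid progenitors, had 548, 929.8 and 1499 CPM in erythroid-primed cells, against 1316, 1670.0 and 2143 CPM in other LSK cells. Plac8 was lower in 16 of 16 libraries (log2 fold change -0.86 ± 0.06 (SE), adjusted p = 1.79e-47). The granule proteases Ctsg (-1.78 ± 0.19), Prtn3 (-1.31 ± 0.13) and Elane (-0.75 ± 0.25) fell, as did the myeloid factors Spi1 (-1.15 ± 0.26), Irf8 (-1.42 ± 0.30) and Gfi1. Gfi1 had 3 UMIs in erythroid-primed cells and 260 in other LSK cells, a ratio of 0.0982 (95% counting interval 0.0201 to 0.290). Cd52 (-1.64 ± 0.16), Tyrobp (-1.67 ± 0.23), Coro1a (-0.71 ± 0.09), Clec12a (-2.65 ± 0.46), Csf3r (-1.69 ± 0.38), Ly86 (-1.47 ± 0.41), Ly6c2 (-2.33 ± 0.65) and Lyz2 (-0.49 ± 0.15) completed the genes called lower. Within batches, 9 of 15 were lower in SB341 and 14 of 19 in SB343. Leaving out 1 library ended the calls of Elane without library 4, 8, 9, 11, 13, 14, 15 or 16 (adjusted p = 0.0519 to 0.346), Ly6c2 without library 11 or 14 (adjusted p = 0.0789 to 0.19), Ly86 without library 11 (adjusted p = 0.0977) and Lyz2 without library 10 or 11 (adjusted p = 0.0526 to 0.0612).

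**Figure D4:**
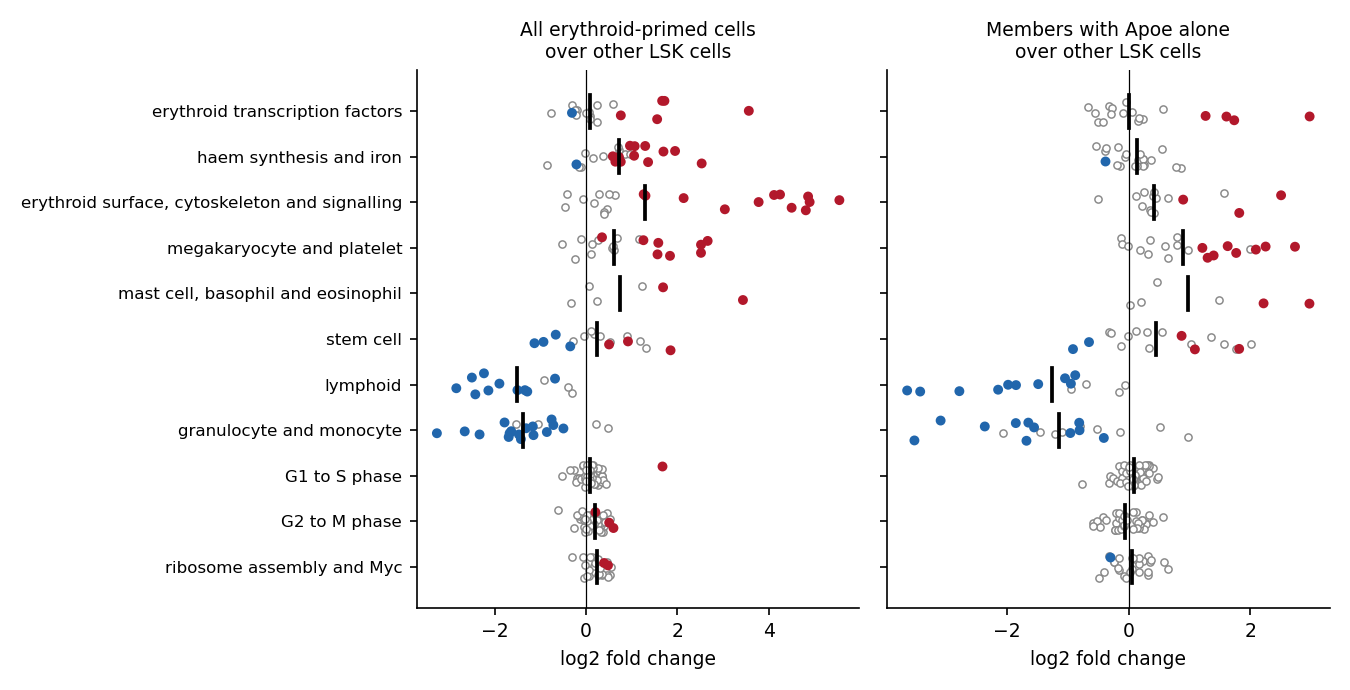
Log2 fold change over other LSK cells of each tested gene in 11 gene lists, for all erythroid-primed cells (left panel) and for members with Apoe alone (right panel); red points were called higher, blue points lower, open points neither, and bars are list medians. In the left panel the medians are 0.73 for haem synthesis and iron and 1.28 for erythroid surface genes, against 0.15 and 0.41 in the right panel, while the lymphoid medians are -1.50 and -1.26.

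The 15 named genes with the highest fold change among those called and higher in at least 75% of libraries were, besides Aqp1, Gata1, Blvrb, Icam4 and Cpox, mostly genes outside the lists. Atp1b2, a subunit of the sodium pump, had 0, 21.7 and 266 CPM in erythroid-primed cells, against 0, 0 and 4.04 CPM in other LSK cells. Atp1b2 was higher in 13 of 16 libraries (log2 fold change 5.05 ± 0.54 (SE), adjusted p = 1.45e-18). Ces2g, a carboxylesterase, had 0, 55.4 and 194 CPM in erythroid-primed cells, against 0, 1.91 and 6.07 CPM in other LSK cells. Ces2g was higher in 12 of 16 libraries (log2 fold change 4.43 ± 0.43 (SE), adjusted p = 3.39e-22). Mt1, a metal-binding metallothionein, had 0, 88.1 and 546 CPM in erythroid-primed cells, against 0, 13.5 and 30.4 CPM in other LSK cells, with lower values in 2 libraries. Mt1 was higher in 13 of 16 libraries (log2 fold change 3.04 ± 0.25 (SE), adjusted p = 7.91e-30). The phospholipid transporter Abcb4 (2.98 ± 0.45), Clca3a1 (2.63 ± 0.57), Tnfaip2 (2.28 ± 0.35), the secreted factor Gdf3 (2.10 ± 0.42), Bex4 (2.09 ± 0.45), Sdsl (1.88 ± 0.35) and the transglutaminase Tgm2 (1.87 ± 0.44) followed, with 24 to 71 UMIs each in members. Outside the naming rule, and chosen after its values were seen, Slc38a5, a glutamine transporter, had 24 UMIs in members and 0 in other LSK cells, at least 68.1-fold higher against a floor of 3 UMIs over that class.

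The 15 named genes at the lower end began with Emp1, an epithelial membrane protein, which had 0 UMIs in members and 163 in other LSK cells, at least 6.39-fold lower in members against a floor of 3 UMIs over the class. Arid5a, an RNA-binding protein known to stabilise immune mRNAs that Regnase-1 degrades, had 2 UMIs in erythroid-primed cells and 250 in other LSK cells, a ratio of 0.0681 (95% counting interval 0.00820 to 0.248). Phf11b had 3 UMIs in erythroid-primed cells and 227 in other LSK cells, a ratio of 0.112 (95% counting interval 0.0230 to 0.333). Wfdc17, a secreted protein of myeloid cells, had 0, 5.45 and 36.3 CPM in erythroid-primed cells, against 21.7, 87.4 and 147 CPM in other LSK cells. Wfdc17 was lower in 16 of 16 libraries (log2 fold change -3.10 ± 0.35 (SE), adjusted p = 3.06e-16). BC035044, which overlaps Clec2i on the other strand, had 0, 30.5 and 60.6 CPM in erythroid-primed cells, against 118, 152 and 218 CPM in other LSK cells, with no overlap. BC035044 was lower in 16 of 16 libraries (log2 fold change -2.34 ± 0.22 (SE), adjusted p = 3.19e-24). The NADPH oxidase subunit Ncf1 (-2.52 ± 0.36), Milr1 (-2.47 ± 0.44), Mical1 (-2.46 ± 0.61), the glycogen branching enzyme Gbe1 (-2.39 ± 0.55) and Tifab (-2.33 ± 0.59) were lower as well, as were Gfi1, Ighm, Clec12a, Dntt and Il12a, given above. Ncf1 also overlaps Gtf2ird2, Milr1 overlaps Polg2 and Mical1 overlaps Smpd2, and Zfpm1, Cpox and Tgm2 above overlap other genes; the sources used here do not give how strand was treated in counting, so reads of such pairs cannot be told apart. Of the 30 named genes, 30 were called in the same direction by DESeq2 with the same filter, 17 within SB341 and 21 within SB343. With genes filtered by class 7 of them could be tested and 7 were called, with matched comparison cells 7 and 7, with thinned cells 12 and 10, and with Apoe left out of E 22 and 19.

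Few cell cycle and ribosome assembly genes were called, while ribosomal protein and mitochondrially encoded genes were lower by small amounts. Of 44 tested G1 to S phase genes, 1 was called higher (Ccne1, cyclin E1, 1.66 ± 0.48), and of 37 G2 to M phase genes 3, with medians of 0.08 and 0.21. Mki67, the proliferation marker, had 195, 419 and 699 CPM in erythroid-primed cells, against 142, 269 and 396 CPM in other LSK cells. Mki67 was higher in 13 of 16 libraries (log2 fold change 0.51 ± 0.10 (SE), adjusted p = 1.77e-05). Ccnb1, cyclin B1, rose by 0.60 ± 0.17 and Hmgb2 by 0.21 ± 0.07. Pooled over libraries, the G2 to M phase list summed to 6019 CPM in members, 6820 CPM in megakaryocyte-primed cells and 4802 CPM in the remaining cells, with no test. Of 26 ribosome assembly genes, Ncl (0.40 ± 0.09) and Nolc1 (0.48 ± 0.15) were higher, and Npm1 (-0.06 ± 0.05) and Myc (-0.30 ± 0.12) were not called. Of 82 ribosomal protein genes, 34 were lower and none higher, with a median of -0.17 and 27 to 34 lower with 1 library left out. Rps24, a protein of the small ribosomal subunit chosen after values were seen, had 4350.2, 5026 and 5829 CPM in erythroid-primed cells, against 5491, 6209 and 7392 CPM in other LSK cells. Rps24 was lower in 16 of 16 libraries (log2 fold change -0.39 ± 0.04 (SE), adjusted p = 3.39e-22). Of 18 mitochondrially encoded genes, 10 were lower and none higher, with a median of -0.24; examples, also chosen after values were seen, are mt-Co1 (-0.30 ± 0.05) and mt-Cytb (-0.22 ± 0.04). With comparison cells matched in UMIs, 3 of 67 ribosomal protein genes and 0 of 15 mitochondrially encoded genes were lower by edgeR, with medians of -0.04 and -0.07. In members with Apoe alone, 26 of 85 ribosomal protein genes were lower, and 1 of 62 with matched comparison cells. Among 13 glycolysis genes, Ldha (0.38 ± 0.08) and Hk1 (0.60 ± 0.17) were higher, and Pkm (-0.56 ± 0.11) and Pgam1 (-0.65 ± 0.15) lower. Of 16 interferon response genes, Ly6e (-0.34 ± 0.06), Bst2 (-0.58 ± 0.19) and Ifi203 (-0.97 ± 0.14) were lower, and of 14 MHC class I genes Psmb8 was (-0.25 ± 0.09). Calls were lost for Ccne1 without library 15 (adjusted p = 0.0578), Hmgb2 without library 6, 7, 8, 10, 13 or 15 (adjusted p = 0.0529 to 0.138), Nolc1 without library 4 (adjusted p = 0.0846), Bst2 without library 6, 7, 11, 15 or 16 (adjusted p = 0.0585 to 0.131) and Psmb8 without library 1, 2, 4, 5, 6, 7, 9, 10, 11, 12 or 16 (adjusted p = 0.0505 to 0.202).

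The genes deleted in part of these cells were barely covered. Zc3h12a, which encodes Regnase-1, had 6 UMIs in members and 87 in other LSK cells, and Zc3h12c, which encodes Regnase-3, had 2 and 75, too few for either to be tested. Of 18 mRNAs described as Regnase-1 targets in other cells, 7 could be tested: Tfrc, Gata2 and Tal1, which belong to the lists above, were higher, and Rel, an NF-kB subunit, was lower (-1.39 ± 0.44, adjusted p = 0.0278), and the call was lost for Rel without library 7 or 13 (adjusted p = 0.0547 to 0.0587) and with DESeq2 (adjusted p = 0.0535). The median log2 fold change of the 7 was -0.99, and of all genes tested 2.7% were higher and 4.45% lower. Pooled over libraries, the 18 mRNAs summed to 566 CPM in members, 565 CPM in megakaryocyte-primed cells and 286 CPM in the remaining cells, with no test. Their level was thus not particular to members.

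The 255 members with Apoe alone were set against other LSK cells separately, a comparison chosen after the data were seen. Of 9247 genes tested, 82 (0.887%) were higher and 193 (2.09%) lower, together 2.97%, by edgeR with TMM factors; with RLE factors the split was 107 and 107, and with DESeq2 126 and 78, and the median log2 fold change of all genes was -0.04 with TMM, 0.06 with RLE and 0.07 with DESeq2. In members with Apoe alone, 4 of 18 erythroid transcription factors were higher. Gata1 had 0, 61.1 and 160.2 CPM in members with Apoe alone, against 1.51, 7.21 and 18.2 CPM in other LSK cells. Gata1 was higher in 14 of 16 libraries (log2 fold change 2.97 ± 0.38 (SE), adjusted p = 6.22e-12). Gata2 had 42.5, 245 and 548 CPM in members with Apoe alone, against 46.8, 62.0 and 93.4 CPM in other LSK cells. Gata2 was higher in 15 of 16 libraries (log2 fold change 1.61 ± 0.20 (SE), adjusted p = 1.43e-12). Gfi1b (1.73 ± 0.33) and Zfpm1 (1.26 ± 0.20) were higher as well. Of 21 haem and iron genes none was higher and Fth1 was lower, with a median of 0.15; Blvrb stood at 0.78 ± 0.45 and Tfrc at 0.25 ± 0.31 (adjusted p = 0.58 and 0.885). Of 15 surface genes, Car2 (0.90 ± 0.09), Icam4 (1.82 ± 0.48) and Epor (2.50 ± 0.72, 7 UMIs) were higher. With single libraries left out, calls were lost for Icam4 without library 1 or 2 (adjusted p = 0.0601 to 0.0733) and Epor without library 1, 3, 7 or 12 (adjusted p = 0.0588 to 0.0876).

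Megakaryocyte and mast cell genes were higher in these cells as well. Of 20 tested megakaryocyte genes, 8 were higher and none lower, with a median of 0.89, against -0.04 over all genes tested; among them were Gp1ba (2.73 ± 0.69), Gp5 (2.25 ± 0.59), Timp3 (2.09 ± 0.65), Gp9 (1.77 ± 0.40), Mmrn1 (1.63 ± 0.51), F2r (1.40 ± 0.28) and Gng11 (1.21 ± 0.35). With an M of 0 required of members, 1 of 22 was higher. Members with M UMIs then joined the comparison cells (180 against 4873 cells), which favours lower values of these genes in members. Cpa3 had 0, 164 and 290.2 CPM in members with Apoe alone, against 20.1, 28.1 and 58.5 CPM in other LSK cells. Cpa3 was higher in 15 of 16 libraries (log2 fold change 2.22 ± 0.26 (SE), adjusted p = 6.45e-14). Ms4a2, a chain of the IgE receptor, rose by 2.97 ± 0.67 with 13 UMIs. Clptm1 was among the 8 named genes, at 0, 66.5 and 427 CPM in members with Apoe alone, against 7.87, 20.2 and 41.3 CPM in other LSK cells. Clptm1 was higher in 13 of 16 libraries (log2 fold change 2.08 ± 0.33 (SE), adjusted p = 6.95e-08). It lies at chr7:19631571-19665033, minus strand, on the side of Apoe that follows the end of its transcript. Asph (1.69 ± 0.40) and Sdsl (1.90 ± 0.41) completed the named genes that were higher. Stem cell genes Meis1 (0.87 ± 0.20), Pdzk1ip1 (1.09 ± 0.32) and Ctnnal1 (1.82 ± 0.55) were higher, and Ly6a (-0.91 ± 0.19) and Ifitm1 (-0.65 ± 0.13) lower. Calls that a single library removed were Gp5 without library 11 (adjusted p = 0.0612), Timp3 without library 4, 8, 11, 13, 14, 15 or 16 (adjusted p = 0.0513 to 0.204), Mmrn1 without library 1, 4, 10, 11, 12, 14, 15 or 16 (adjusted p = 0.0758 to 0.269), Gng11 without library 4, 5, 12, 14 or 16 (adjusted p = 0.0513 to 0.101), Ms4a2 without library 16 (adjusted p = 0.124), Pdzk1ip1 without library 1, 3, 8, 11, 12, 15 or 16 (adjusted p = 0.0557 to 0.138) and Ctnnal1 without library 1, 8, 10, 11, 12, 13, 14, 15 or 16 (adjusted p = 0.0538 to 0.13).

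Lymphoid and myeloid genes were lower in members with Apoe alone, at 10 of 14 and 11 of 20 tested genes, with medians of -1.26 and -1.15. Dntt had 0, 37.5 and 145 CPM in members with Apoe alone, against 191, 424 and 771 CPM in other LSK cells, without overlap. Dntt was lower in 16 of 16 libraries (log2 fold change -3.42 ± 0.22 (SE), adjusted p = 1.04e-52). Ighm had 0, 0 and 81.8 CPM in members with Apoe alone, against 161, 231 and 295 CPM in other LSK cells, without overlap. Ighm was lower in 16 of 16 libraries (log2 fold change -3.64 ± 0.30 (SE), adjusted p = 1.35e-30). Of the other named genes at the lower end, Wfdc17 fell by 3.05 on the log2 scale, Emp1 had 0 against 163 UMIs (at least 3.54-fold lower), and Clec12a, Arid5a, Gfi1 and Itpkb had 2, 1, 2 and 2 UMIs, with ratios of 0.0821 (95% counting interval 0.00990 to 0.299), 0.0614 (0.00155 to 0.345), 0.118 (0.0142 to 0.431) and 0.127 (0.0153 to 0.465). DESeq2 did not call Emp1 or Itpkb (adjusted p = 0.457 and 0.0582). This comparison shares its other LSK cells with that of the whole class, so the 2 are not independent.

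Directly compared, the 145 members with Car1, Klf1 or Mfsd2b had more haem, iron and metallothionein transcripts than the 255 with Apoe alone. Of the 145, only those with Car1 or Klf1 had a higher haem and iron sum, as given below. The direct comparison, too, was chosen after the data were seen. It used the 13 libraries with at least 5 cells of each kind. Of 1125 genes tested, 26 (2.31%) were higher and 25 (2.22%) lower, together 4.53%. Within SB343, 16 and 24 genes were called; within SB341 (6 libraries) edgeR called 0 and 0 of 567, with 17 higher and 17 lower at an unadjusted p under 0.05. Of 7 haem and iron genes 5 were higher and none lower (median 1.04, against -0.01 over all genes tested): Blvrb, Cpox, Tfrc (1.52 ± 0.36), Glrx5 (1.04 ± 0.32) and Tmem14c (0.81 ± 0.25). This count was 1 to 5 with 1 library left out (1 of 6 without library 11), 1 of 5 with an M of 0, and 0 of 3 within SB341, and 2 of the genes could be tested with matched comparison cells, with neither called. Over all libraries together, the haem and iron list summed to 5179 CPM in members with Car1 or Klf1. It was 2674 CPM in those with Mfsd2b but neither and 2735 CPM in those with Apoe alone. The megakaryocyte list summed to 877, 2729 and 1777 CPM in the same sets, in that order. These sums were not tested. Blvrb had 0, 211 and 509 CPM in members with Car1, Klf1 or Mfsd2b, against 0, 29.5 and 84.6 CPM in members with Apoe alone. Blvrb was higher in 11 of 13 libraries (log2 fold change 2.50 ± 0.44 (SE), adjusted p = 5.5e-05). Cpox had 0, 92.2 and 324 CPM in members with Car1, Klf1 or Mfsd2b, against 0, 16.3 and 85.1 CPM in members with Apoe alone. Cpox was higher in 11 of 13 libraries (log2 fold change 2.48 ± 0.56 (SE), adjusted p = 0.00184). Mt1 had 0, 214 and 1253 CPM in members with Car1, Klf1 or Mfsd2b, against 0, 16.3 and 82.1 CPM in members with Apoe alone, higher in 11 libraries and lower in none (log2 fold change 3.44 ± 0.38, adjusted p = 8.85e-10). Mt2, its neighbour on chromosome 8, had 122 UMIs against 1, a 128-fold ratio (95% counting interval 22.5 to 5097), and was not called by DESeq2 (adjusted p = 0.111). Ces2g had 0, 190.1 and 370.1 CPM in members with Car1, Klf1 or Mfsd2b, against 0, 0 and 60.9 CPM in members with Apoe alone. Ces2g was higher in 12 of 13 libraries (log2 fold change 3.63 ± 0.58 (SE), adjusted p = 8.43e-06). Car2 was higher by 0.67 ± 0.11.

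Cd3eap, an RNA polymerase I subunit that overlaps Ercc1 on the other strand (2.43 ± 0.71), the nuclease Isg20 (1.59 ± 0.49) and the mitochondrial peroxidase Prdx3 (1.43 ± 0.42) were the other named genes that were higher. None of 7 tested erythroid transcription factors and none of 5 megakaryocyte genes was called by edgeR in this direct comparison: Gata2 stood at 0.06 ± 0.31 and Zfpm1 at 0.61 ± 0.25, with adjusted p = 0.944 and 0.206, while Gata1 was too low to be tested. Lower in members with Car1, Klf1 or Mfsd2b were the tetraspanin Cd63 (-2.28 ± 0.51), Adgrl4 (-1.61 ± 0.35), Prtn3 (-1.57 ± 0.44), Nrgn (-1.44 ± 0.31), Meis1 (-1.30 ± 0.39), Fxyd5 (-1.19 ± 0.26), Serpina3g (-1.13 ± 0.23) and Cd48 (-1.13 ± 0.35). Adgrl4, an adhesion receptor of stem and endothelial cells, had 0, 60.5 and 190.1 CPM in members with Car1, Klf1 or Mfsd2b, against 103, 192 and 363 CPM in members with Apoe alone, lower in 13 of 13 libraries. Leaving out library 1, 8, 11, 14 or 15 gave 14, 17, 15, 14 or 15 genes called higher, and leaving out library 15 gave 15 called lower. Among the genes named, calls were lost for Tfrc without library 11 (adjusted p = 0.0501), Glrx5 without library 1, 3, 8, 10, 11, 12, 14, 15 or 16 (adjusted p = 0.0606 to 0.185), Tmem14c without library 1, 8, 9, 11, 12, 14, 15 or 16 (adjusted p = 0.0602 to 0.192), Cd3eap without library 11 or 12 (adjusted p = 0.0613 to 0.0918), Isg20 without library 1, 9, 13, 14 or 15 (adjusted p = 0.0532 to 0.115), Prdx3 without library 1, 3, 8, 9, 11, 13 or 15 (adjusted p = 0.0524 to 0.118), Prtn3 without library 15 (adjusted p = 0.101), Meis1 without library 1, 8, 10, 12, 13, 14, 15 or 16 (adjusted p = 0.0638 to 0.132) and Cd48 without library 1, 3, 6, 8, 10, 12, 13, 14 or 15 (adjusted p = 0.0565 to 0.155).

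**Figure D5:**
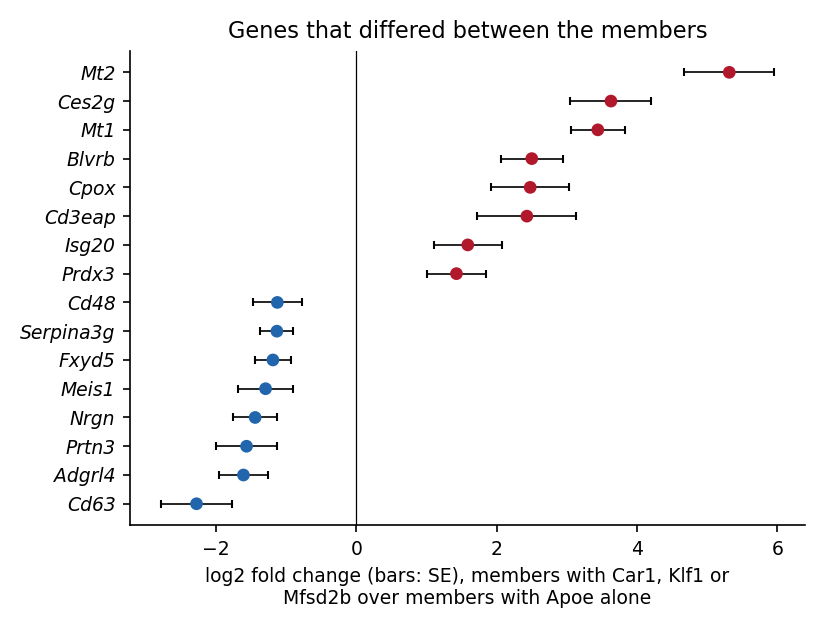
Log2 fold change with its SE of the 16 named genes that differed between members with Car1, Klf1 or Mfsd2b and members with Apoe alone, over 13 libraries; red is higher and blue lower in the first. Mt2, Ces2g, Mt1, Blvrb, Cpox and Cd3eap lie above 2 and Cd63 below -2; the Mt2 value rests on 1 UMI in members with Apoe alone.

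Members with Klf1 held more Ermap, Blvrb and metallothionein transcripts than members without it in the 4 libraries (6, 11, 14 and 16) with at least 5 cells on both sides. Of 903 genes tested, 29 (3.21%) were higher and 39 (4.32%) lower in members with Klf1, together 7.53%; DESeq2 called 1 and 6, and leaving out library 6, 11, 14 or 16 gave 54, 3, 11 or 4 higher and 69, 7, 21 or 6 lower. Ermap had 39 UMIs in members with Klf1 and 0 in those without, at least 20.7-fold higher against a floor of 3 UMIs over the class. Mt2 had 52 and 0, at least 27.6-fold higher. Blvrb (47 against 4 UMIs), Mt1 (63 against 8), Aqp1 (26 against 5), the asparagine synthetase gene Asns (28 against 5), the protease gene Ctse (41 against 10) and Ces2g (26 against 2) were the other named genes higher with Klf1. Of 6 haem and iron genes 3 were called higher (Blvrb, Tfrc and Tmem14c) and of 4 surface genes 3 (Ermap, Aqp1 and Car2). Lower with Klf1 were Pkm (3 against 69 UMIs, a ratio of 0.0692 (95% counting interval 0.0139 to 0.211)), Adgrl4 (3 against 48, a ratio of 0.0994 (95% counting interval 0.0198 to 0.309)), Fxyd5 (-3.00 ± 0.56), Zyx (-2.58 ± 0.74), Tmem176a (-2.56 ± 0.82), Igfbp4 (-2.49 ± 0.77), Nrgn (-2.36 ± 0.70) and Ctla2a (-2.30 ± 0.37). DESeq2 did not call Ermap, Mt2, Blvrb, Aqp1, Asns, Ctse, Ces2g, Tfrc, Tmem14c, Car2, Adgrl4, Zyx, Tmem176a, Igfbp4 or Nrgn, with adjusted p from 0.0615 (Blvrb) to 0.694 (Mt2).

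Few genes were called between members and the 106 megakaryocyte-primed cells under the full rule. More were called when Apoe was left out of E, which changed both classes. In the 10 libraries with at least 5 cells of each, 1311 genes were tested; 2 (0.153%) were higher and 10 (0.763%) lower in erythroid-primed cells, together 0.915%, with 1 and 4 called within SB341 and 4 and 9 within SB343. With Apoe left out of E, 45 genes were higher and 43 lower of 745 tested in 8 libraries, and 6 of 8 haem and iron genes were higher, against 1 of 5 under the full rule. That variant set 88 members against 154 megakaryocyte-primed cells, because M was then compared with an E without Apoe. The 2 results thus compare different cells on both sides. Plac8 had 548, 1121 and 1499 CPM in erythroid-primed cells, against 269, 399 and 811 CPM in megakaryocyte-primed cells. Plac8 was higher in 10 of 10 libraries (log2 fold change 1.24 ± 0.16 (SE), adjusted p = 1.04e-08). Fth1 had 617, 1094 and 1370.4 CPM in erythroid-primed cells, against 408, 742 and 1072 CPM in megakaryocyte-primed cells. Fth1 was higher in 9 of 10 libraries (log2 fold change 0.52 ± 0.14 (SE), adjusted p = 0.0322). Of 10 tested megakaryocyte genes outside the rule 4 were lower and none higher, which the choice of the comparison cells by M favours; among them were Rap1b (-1.74 ± 0.17), Plek (-1.58 ± 0.33) and Cd9 (-1.43 ± 0.37). Slc14a1, listed with the erythroid surface genes, had 0, 88.3 and 192 CPM in erythroid-primed cells, against 118, 343.3 and 673 CPM in megakaryocyte-primed cells. Slc14a1 was lower in 10 of 10 libraries (log2 fold change -1.83 ± 0.33 (SE), adjusted p = 0.00014). Tuba8 (-2.10 ± 0.53), Pdcd4 (-1.12 ± 0.22) and the actin-binding Tmsb4x, lower in 9 of 10 libraries, were lower too. None of 9 tested erythroid transcription factors was called by edgeR, with Gata2 at -0.43 ± 0.27 and Zfpm1 at -0.52 ± 0.24 (adjusted p = 0.726 and 0.549). Gata1 was too low to be tested; it stood at 113 CPM over all members and 61.3 CPM over all megakaryocyte-primed cells (124 and 18 UMIs). Leaving out library 8, 10, 11, 12 or 14 gave 5, 1, 1, 4 or 1 genes higher, and leaving out library 13 or 14 gave 6 or 5 lower. Leaving out 1 library ended the calls of Fth1 without library 3, 7, 10, 11, 13 or 14 (adjusted p = 0.056 to 0.203), Cd9 without library 10, 11, 12, 13 or 14 (adjusted p = 0.0516 to 0.221), Plek without library 14 (adjusted p = 0.0636) and Tuba8 without library 12 or 13 (adjusted p = 0.0505 to 0.104).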

How the data were processed

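Single LSK cells were measured by MARS-seq in 16 plates, each deposited as 1 library. The files hold UMI counts per gene and well as deposited by the authors. Demultiplexing with bcl2fastq 2.15.0.4 and the mm10 build are named in the submitters' processing notes; aligner, counter, annotation and use of strand are not given. Cell numbers and batch came from the deposited well table, in which library 1 is missing; its wells were kept and their cell number is unknown. No well was listed with more than 1 cell, and doublets were not called.

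Wells not listed as empty with at least 500 UMIs (spike-ins excluded) and a mitochondrial share under 20% were kept. Of 6144 wells, 841 fell under the UMI minimum (5 of them met the rule), 86 of the rest exceeded the mitochondrial limit (1 met it) and no well name was shared between libraries. Counts were summed per library and class where both classes had at least 5 cells, and tested with edgeR 4.0.16 (limma 3.58.1, R 4.3.3) by the quasi-likelihood F test on genes passing filterByExpr for the design, with a trended dispersion, Benjamini-Hochberg adjustment and the library as a block. Classes were paired by library because their cells share a plate. TMM factors were computed on genes passing the filter by class. SE is the log2 fold change divided by the square root of F. Levels are CPM of all UMIs of a class. Single values were tested by exact permutation of signs over libraries, two-sided, adjusted over 6 values. Scripts used Python 3.11.15, numpy 2.4.6, scipy 1.17.1 and pandas 2.3.3. The edgeR fit was checked on simulated counts in which classes were not chosen from the cells' own transcripts, so that check does not cover this choice.

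Genes were named as the 15 highest and 15 lowest log2 fold changes among genes called (adjusted p under 0.05) with the same direction in at least 75% of libraries, leaving out predicted gene models, or 8 each in the other comparisons, and list members where called. Ribosomal protein and mitochondrially encoded genes were taken by symbol. Some genes of the lists are not reported here by name and were left out of the check of the name. The members, the 19 gene lists and the tests were chosen with earlier results of these data known, and the comparisons that involve members with Apoe alone were added after the data were seen. Alternatives were RLE factors, DESeq2 1.42.0, other filters, no block, UMI minimums of 300 and 1000, other forms of the rule, comparison cells matched in UMIs, cells thinned to 500 UMIs, single batches and each library left out. Intervals and floors cover counting error only. Promoters and symbols came from RefSeq (GRCm38.p6) and coordinates from GENCODE.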

Additional observations from a re-analysis of the deposited data

How the results depend on the processing

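Several alternatives keep fewer cells, UMIs or genes by construction, and the cause of a move was otherwise not tested. Where the rule was narrowed, cells that were no longer members joined the other LSK cells. The counts below are those that moved by over 1.5 times, and the fits without the replicate block drop the pairing by library. Members against other LSK cells gave 236 genes higher as reported. The count was 129 with the filter by class, 120 without the block, 138 with M of 0, 73 matched in UMIs, 22 thinned, 47 in SB341, 127 in SB343, and 185 to 254 with 1 library left out. The 389 genes lower became 231 without the block, 84 matched in UMIs, 57 thinned, 121 in SB341, 193 in SB343, and 297 to 393 with 1 library left out. Members against megakaryocyte-primed cells gave 2 genes higher as reported. The count was 4 with RLE factors, 1 with DESeq2, 4 without a filter, 1 without the block, 1 with E of 3 or more, 10 with 2 genes of E, 9 with M of 0, 45 without Apoe in E, 1 matched in UMIs, 0 thinned, 1 in SB341, 4 in SB343, and 1 to 5 with 1 library left out. The 10 genes lower became 5 with the filter by class, 5 without the block, 43 without Apoe in E, 2 matched in UMIs, 4 thinned, 4 in SB341, and 5 to 14 with 1 library left out. Leaving Apoe out of E changed both classes of this comparison, to 88 members and 154 megakaryocyte-primed cells. Members with Klf1 against those without gave 29 genes higher as reported. The count was 1 with DESeq2, 15 with the filter by class, 5 without the block, 8 with E of 3 or more, 3 with 2 genes of E, 15 with M of 0, 7 matched in UMIs, 0 thinned, 54 in SB343, and 3 to 54 with 1 library left out. The 39 genes lower became 6 with DESeq2, 12 without the block, 19 with E of 3 or more, 11 with 2 genes of E, 18 with M of 0, 16 matched in UMIs, 0 thinned, 69 in SB343, and 6 to 69 with 1 library left out. Members with Car1, Klf1 or Mfsd2b against those with Apoe alone gave 26 genes higher as reported. The count was 9 with the filter by class, 2 without the block, 10 with M of 0, 5 matched in UMIs, 0 thinned, 0 in SB341, 16 in SB343, and 14 to 33 with 1 library left out. The 25 genes lower became 14 with DESeq2, 14 with the filter by class, 4 without the block, 12 matched in UMIs, 1 thinned, 0 in SB341, and 15 to 33 with 1 library left out. Members with Apoe alone against other LSK cells gave 82 genes higher as reported. The count was 126 with DESeq2, 36 with the filter by class, 34 without the block, 51 with E of 3 or more, 38 with M of 0, 34 matched in UMIs, 15 thinned, 17 in SB341, 31 in SB343, and 58 to 80 with 1 library left out. The 193 genes lower became 107 with RLE factors, 78 with DESeq2, 97 without the block, 24 matched in UMIs, 36 thinned, 79 in SB341, 43 in SB343, and 168 to 211 with 1 library left out. The counts of 0 with thinned cells are edgeR's; at an unadjusted p under 0.05 there were 2 genes higher of 174 against megakaryocyte-primed cells, 0 higher and 1 lower of 61 for Klf1, and 4 higher of 127 against Apoe alone. Those within SB341 stand in the report. Some genes changed sign against other LSK cells. With Apoe left out of E the log2 fold change was -0.7764 for Cpa3, -0.2453 for Gp9, -0.9846 for Meis1, -0.7001 for Pdzk1ip1 and -0.3691 for Rap1b. With 2 genes of E it was -0.0737 for Cpa3 and -0.5795 for Meis1, with M of 0 -0.0813 for Rap1b, and with matched cells 0.0012 for Fth1. Against Apoe alone, H2-K1 stood at 0.3782 with thinned cells and Srgn at 0.0131 in SB341; both had been called lower. The mean difference of held-out Apoe, 437 CPM, was 307 CPM with E of 3 or more (exact permutation p = 0.0625), 298 CPM with matched cells (p = 0.111), 634 CPM in SB341 (p = 0.25, the smallest possible) and 314 CPM in SB343 (p = 0.0938). That of the mitochondrial share was -0.286 points with matched cells (exact permutation p = 0.211) and -0.694 points in SB341 (p = 0.0664). Held-out Klf1, 72.6 CPM, was 46.9 CPM in SB341, and genes per cell, 9.81, was 5.25 with matched cells. The median share of members was 2.29% with 2 genes of E, 1.55% with Apoe left out, 2.11% with thinned cells and 10.2% in SB343. With 1 library left out the held-out differences spanned 467 to 553 CPM for Car1, 61.8 to 77.7 for Klf1, 80.1 to 92.7 for Mfsd2b and 345 to 491 for Apoe, the mitochondrial difference -0.956 to -0.757 points, genes per cell 9.33 to 10.4 and the median share 6.87 to 7.40%. Other counts stayed within 1.5 times, and held-out Car1, Klf1 and Mfsd2b and genes per cell kept their direction and call in every alternative run. The Klf1 comparison could not be fitted in SB341 or without Apoe in E, and those with Apoe alone could not with 2 genes of E or without Apoe in E. Depth limits the class: at a median of 1516 UMIs per other LSK cell an E of 2 depends on sampling, genes with few UMIs such as Sphk1 or Cldn13 cannot be ranked, and cells of both genotypes are mixed without a label.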
